A study of Mus musculus with 13 samples.

Results

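A stretch of chromosome 4 around Col27a1 carries a long chain of Class II Sox9 peaks in mouse rib cartilage cells, the second by number of peaks when neighbours may stand up to 10 kb apart. With gaps of at most 5 kb no run of Class II peaks there exceeds 4. The members described are the Sox9 peaks whose centres lie in mm9 chr4:62820000-63040000, an interval of 220 kb. The interval was chosen by its count of rib peaks, as it holds a run of 15 Class II peaks. They number 31 of the 27656 peaks called in rib chondrocytes, of which 27 are Class II and 4 are Class I, and 12 of the 17440 peaks called in nasal septum chondrocytes. Rib chondrocytes came from wild-type ICR mice at postnatal day 1 and nasal septum chondrocytes from wild-type ICR mice at embryonic day 17.5, both untreated and freed by enzyme digestion. The study immunoprecipitated Sox9, histone marks, p300 and RNA polymerase II with input and IgG controls in 13 libraries, and the values here come from the 2 Sox9 libraries, 1 per tissue. Tissue and stage therefore differ together, and no replicate check was possible. Class I and Class II divide the rib list without remainder, but the labels do not say how the submitters drew them. The lists give positions alone, so read depth and peak strength are unknown. Whether any of these peaks acts as an enhancer was not measured in the values used here, and the run is called a chain of Class II peaks below.

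Col27a1 encodes the alpha chain of type XXVII collagen, a fibrillar collagen laid down in cartilage, and loss of its human counterpart causes the skeletal disorder Steel syndrome. Sox9 is the HMG-box transcription factor that chondrocytes need to form and to make their matrix. It binds short AT-rich words related to ACAAT, often as a pair of Sox9 molecules on 2 inverted words, and works with Sox5 and Sox6 at matrix genes such as Col2a1 and Acan. In the RefSeq table of GRCm38.p6 the nearest protein-coding neighbours of Col27a1 are Kif12, a kinesin gene, before it and Orm1, which encodes a plasma glycoprotein, after it. The microRNA gene Mir455 lies inside the bounds of Col27a1 in that table. An mm9 annotation was not used here, so no peak was assigned to an exon, an intron or a promoter of these genes.

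The promoter window of Col27a1 is shown because it is the regulatory sequence of the gene that the interval was drawn around. It is the RefSeq window of GRCm38.p6 at chr4:63215162-63215461 on the plus strand, 250 bases before to 50 bases after the annotated start, with CpG dinucleotides in capitals.
Col27a1 promoter: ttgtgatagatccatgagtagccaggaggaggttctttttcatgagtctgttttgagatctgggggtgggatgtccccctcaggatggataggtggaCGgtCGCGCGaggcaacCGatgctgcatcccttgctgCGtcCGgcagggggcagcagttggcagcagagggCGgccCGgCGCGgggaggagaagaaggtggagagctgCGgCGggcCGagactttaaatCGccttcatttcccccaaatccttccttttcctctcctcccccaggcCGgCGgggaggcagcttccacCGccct

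The window was 61.7% G or C, against a median of 52.7% over the 32851 promoter windows of the table. It held 18 CpG dinucleotides, against a median of 7. Of all windows, 74.6% had a lower G or C share and 70.3% had fewer CpG dinucleotides. The Sox word ACAAT, or ATTGT on the other strand, occurred 0 times in the Col27a1 window. Most windows lacked the word, as 31.0% of all windows held it. The longer word ACAATG, which contains the first, had no match on either strand, and 12.6% of all windows held it. No match says only that these letters are not in this window, and the peaks themselves were not searched. Of the 10 other fibrillar collagen genes, 7 had windows in the table, and that of Col3a1 alone held ACAAT.

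Both mature microRNAs of Mir455, a microRNA gene known for its expression in cartilage, are shown because the interval was drawn around its host gene. Bases 2 to 8, the seed that pairs with target messages, are in capitals.
mmu-miR-455-5p: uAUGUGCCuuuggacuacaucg
mmu-miR-455-3p: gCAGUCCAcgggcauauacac

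The 2 arms have different seeds. The seed of the 5p arm was shared by 1 other mature microRNA of the RefSeq table, mmu-miR-5129-3p, and that of the 3p arm by none of the other names among 1679. Expression of Mir455 and Col27a1 was not measured in the values used here.

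The interval held many Sox9 peaks for its length, and its distance from the next peaks was not compared with spacing over the list. The nearest rib peaks outside it stood 75.8 kb before its start, at chr4:62744103-62744212, and 109 kb beyond its end, at chr4:63148452-63148658, and nasal peaks lay at both places. The outermost rib peaks within it stood 0.231 kb from its start, at chr4:62820154-62820308, and 55.3 kb from its end, at chr4:62984606-62984768. When the genome was tiled in 11646 windows of the same 220 kb, windows held a median of 1 rib peak and a mean of 2.37, and 1 window held more than the 31 rib peaks counted here. The 27 Class II peaks were exceeded in 2 windows, the 12 nasal peaks in 61 and the 4 Class I peaks in 260. The Class II count chose the interval, so these ranks are a description. The nasal list did not choose it, and the 12 nasal peaks were many for a window of this length. There were 38.7 nasal peaks per 100 rib peaks in the interval, against 63.1 over the whole lists. That ratio divides by the rib count, which chose the interval, so it is not free of the choice and does not show few nasal peaks. Among the 19 windows with at least 20 Class II peaks, nasal peaks ranged from 7 to 24 with a median of 13, and 10 windows had more nasal peaks than this one and 5 fewer.

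**Figure D1:**
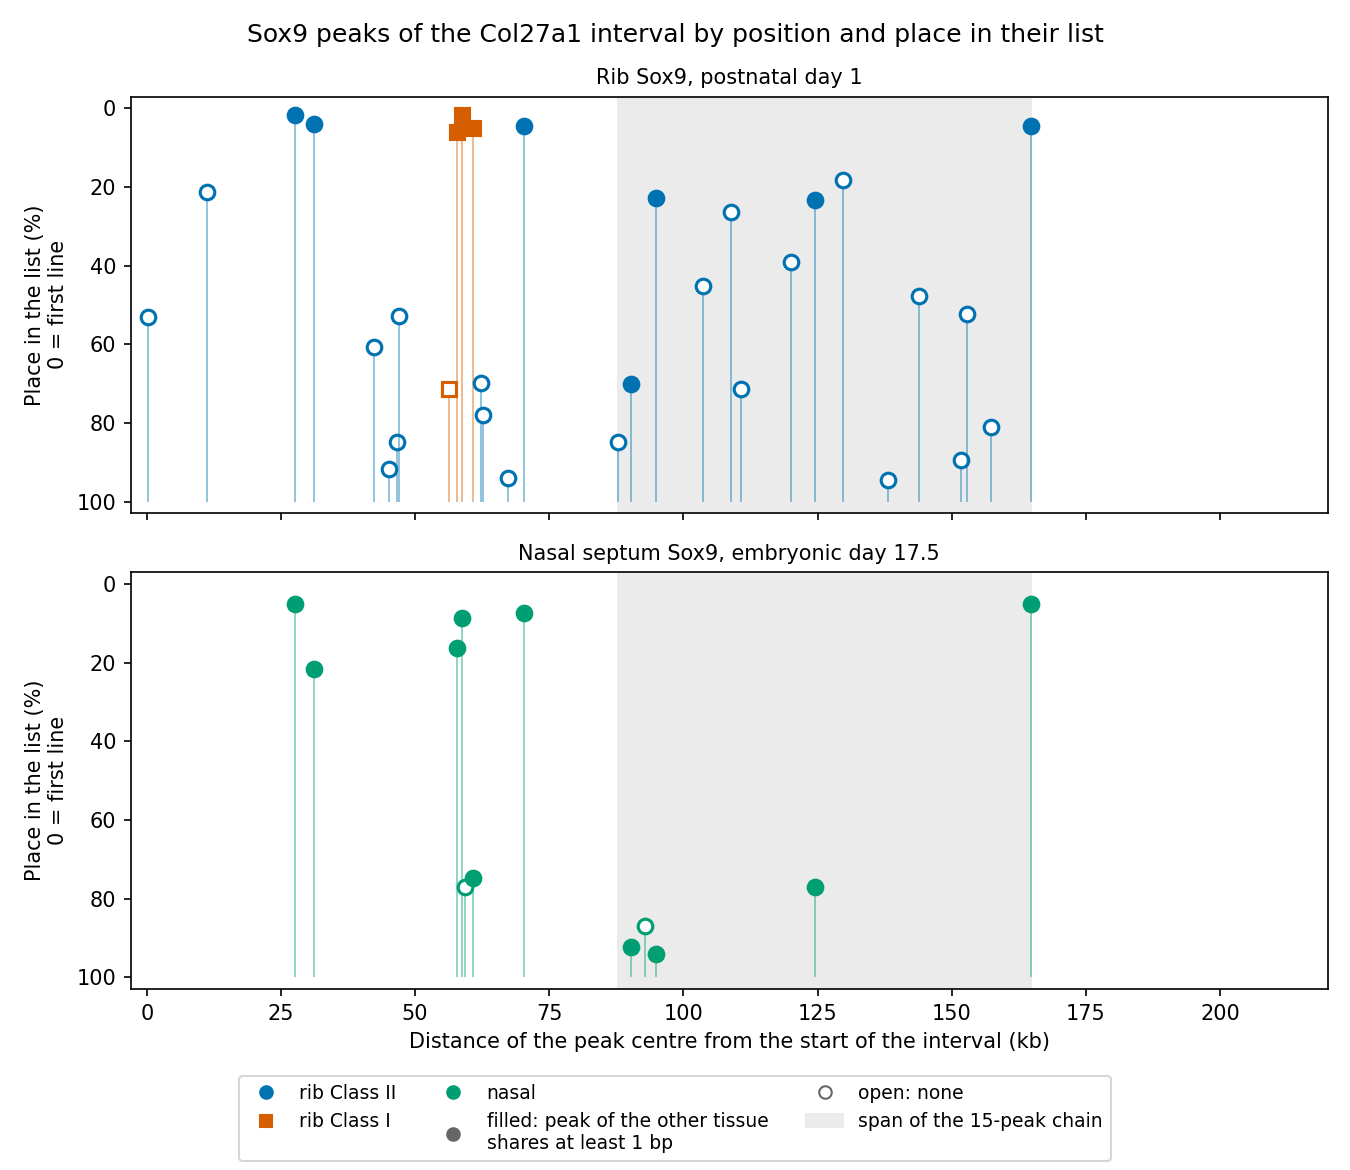
Peaks of the Col27a1 interval in the rib list (above) and the nasal list (below), by distance of their centre from the start of the interval (kb) and by place in their list (%, first line at the top). Filled symbols share at least 1 bp with a peak of the other tissue, and the grey band marks the 15-peak chain, where 4 of 15 rib symbols are filled and the rightmost is the only one in the first 10% of the list.

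Rib and nasal chondrocytes had in common 10 binding sites of the interval. Nasal peaks overlapped 10 of the 31 rib peaks by at least 1 bp, or 32.3% (95% exact binomial interval 16.7% to 51.4%), against 42.8% over the whole rib list. Rib peaks overlapped 10 of the 12 nasal peaks, or 83.3% (51.6% to 97.9%), against 68.2% over the whole nasal list. The interval was chosen for its many rib peaks, so this second share is not free of the choice. Neighbouring peaks are not independent, and the intervals cover counting error alone. Both intervals include the share of the whole list. By class, 7 of 27 Class II peaks were overlapped, or 25.9% (11.1% to 46.3%), against 34.4% of all Class II peaks, and 3 of 4 Class I peaks, against 68.8% of all Class I peaks. Within the 10 shared sites the centres lay 1 to 101 bp apart, with a median of 14.5 bp, against 35 bp over all shared rib peaks. They shared 107 to 204 bp. None of the other 21 rib peaks had a nasal peak within 1 kb, a count without a share over the whole list beside it. Their nearest nasal peak stood 1.37 to 27.1 kb away, with a median of 11.0 kb. Over all Class II peaks without overlap that median was wider, at 23.1 kb.

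Which rib peaks were shared went with their place in the rib list. The lists are not sorted by position, and neither labels nor files say what sets their order. The 7 interval peaks in the first 10% of the rib list were all overlapped by nasal peaks, where 81.7% of all rib peaks in that part of the list were. Of the 24 later peaks 3 were overlapped, or 12.5% (95% exact binomial interval 2.66% to 32.4%), against 38.5% of all rib peaks in the last 90% of the list. All but 1 of these 24 were Class II, and 27.9% of all Class II peaks in that part were overlapped, a share inside the interval. Shared peaks held a median place of 1316 and the others of 19343, against 9291 and 16690 over the whole rib list. If each interval peak took the share of its own class and 10% bin of the list, 12.0 of the 31 would be overlapped, where 10 were. The sum thus differed from the count by 2 peaks.

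**Figure D2:**
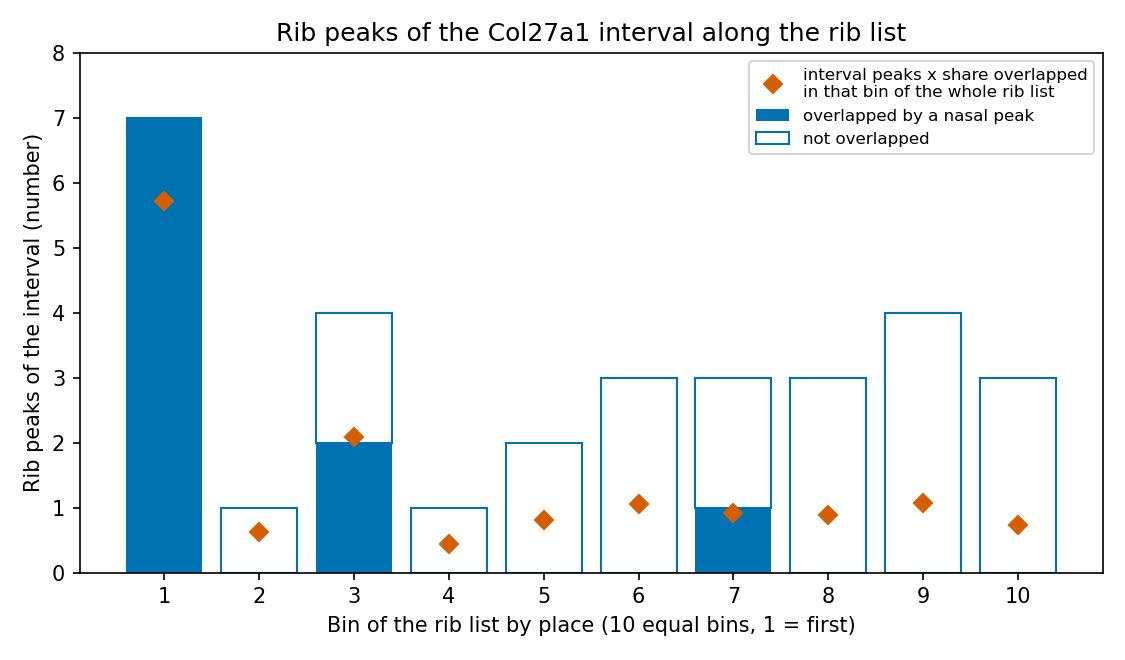
Number of rib peaks of the Col27a1 interval in each of 10 equal bins of the rib list by place, filled where a nasal peak overlaps and open where none does; diamonds give the interval's peaks in that bin times the share overlapped in the same bin of the whole rib list. All 7 peaks of bin 1 are filled, and 3 of the 24 later ones are.

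Before the chain lay 16 rib peaks, 12 of them in a single run when both classes are counted. The first 2 Class II peaks of the interval, at chr4:62820154-62820308 and chr4:62831054-62831236, stood 10745 bp apart and joined no run. Their nearest nasal peaks lay 27.1 and 16.2 kb away. The next 2 peaks stood early in both lists. The Class II peak at chr4:62847535-62847707 held place 451 of the rib list and lay wholly within a nasal peak at chr4:62847408-62847746, which held place 884 of the nasal list and was the earliest nasal peak of the interval. Its neighbour at chr4:62851145-62851313 held place 1104, and the nasal peak at chr4:62851165-62851313 ended on the same base and held place 3765. A group of 4 Class II peaks followed within 4.66 kb, from 62862355 to 62867013. Its places ran from 52.9% to 91.8% of the list, and no nasal peak overlapped it.

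The only Class I peaks of the interval formed a compact group of 4 within 4.59 kb, from 62876341 to 62880928, and 3 of them stood among the earliest of their class. The peak at chr4:62878580-62878801 held place 442 of the rib list, the earliest in the interval, and place 23 of the 6794 Class I peaks. Those at chr4:62880763-62880928 and chr4:62877785-62877994 held places 1413 and 1636 of the rib list, and 86 and 105 of Class I. So 3 of 4 lay in the first 10% of the rib list, where 3.25% of all Class I peaks lay. The fourth, at chr4:62876341-62876436, stood at 71.4% of the list and is 96 bp wide. Nasal peaks overlapped the 3 early peaks and not the late one. The nasal partners held places 1511, 13025 and 2853 in the nasal list. A further nasal peak at chr4:62879229-62879379 lay 0.427 kb from the nearest Class I peak and overlapped no rib peak. Nearest other Class I peaks stood 460 kb before the interval and 1747 kb beyond it.

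Beyond the Class I group came 4 Class II peaks. Those at chr4:62882242-62882489, chr4:62882664-62882800 and chr4:62887277-62887437 stood at 69.9%, 77.9% and 94.1% of the rib list and had no nasal partner. The peak at chr4:62890121-62890309 held place 1219, or 4.41%. Its nasal partner at chr4:62890121-62890311 began on the same base and held place 1279 of the nasal list. With both classes counted, the 12 peaks from 62862355 to 62890309 formed a single run with gaps of at most 10 kb, 4 of them Class I.

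The chain itself began 17482 bp further on and held no Class I peak. Its 15 Class II peaks ran from 62907792 to 62984768, a span of 77.0 kb, with gaps of 0.924 to 9.15 kb between neighbours and a median gap of 4.96 kb. It ended 164 kb short of the next Class II peak. Peak widths ran from 112 to 416 bp with a median of 167 bp, against 181 bp over all Class II peaks. Among the 281 Class II chains of at least 5 peaks with gaps of at most 10 kb, it ranked second by number of peaks and first by span. Its peaks were widely spaced for a long chain. Median gaps of the 12 other chains of at least 10 peaks had a median of 2.42 kb, and 1 of those chains had a wider one than this chain. Of all 280 other chains, 53 had a wider median gap. The chain with more peaks, 16 on chromosome 7, spanned 55.1 kb, the widest of the other 280. The chain chose the interval, so its length and span are given without a test.

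Nasal peaks met the chain at 4 places and left most of it empty. They overlapped 4 of the 15 peaks, or 26.7% (95% exact binomial interval 7.79% to 55.1%), against 42.5% of the 1722 peaks of other chains and 34.4% of all Class II peaks. Among its 14 peaks in the last 90% of the rib list, 3 were overlapped, or 21.4% (4.66% to 50.8%), against 27.9% of all Class II peaks there. Taking the list's share for the class and place of each peak would give 4.60 of the 15. Of the other 280 chains 74 had a lower share and 206 a higher one. Of the 12 others with at least 10 peaks, 1 had a lower share and 11 a higher one, in a range of 23.1% to 83.3%. The median place of the chain's peaks was 47.8% of the rib list, and 11 of those 12 chains had an earlier median place. Chains differ in length and in place, and the part of place in their nasal shares was not tested.

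**Figure D3:**
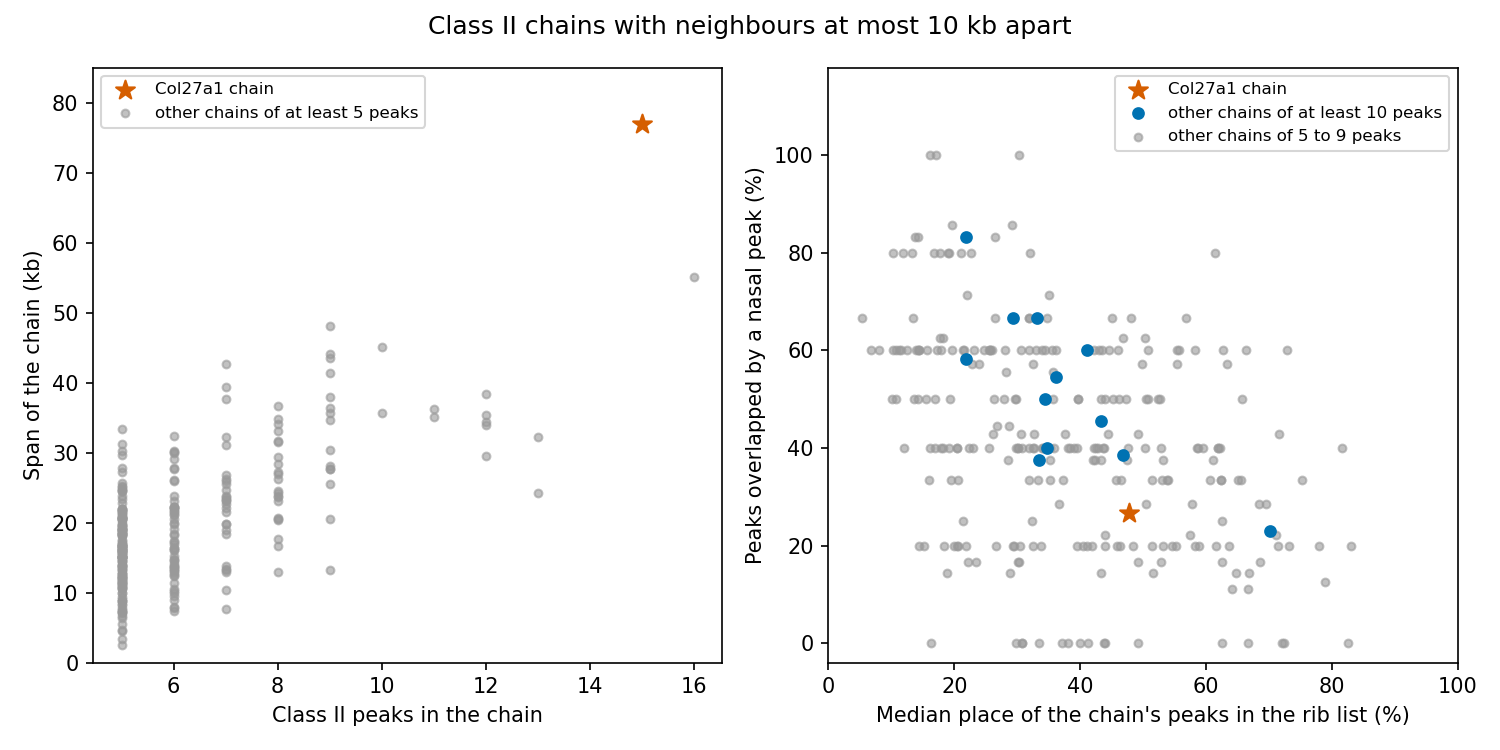
Left, number of Class II peaks and span (kb) of each chain of at least 5 Class II peaks; right, median place of a chain's peaks in the rib list (%) and percent of its peaks overlapped by a nasal peak. The Col27a1 chain (star) has the widest span, 77.0 kb, and a nasal share of 26.7%, below 11 of the 12 other chains of at least 10 peaks.

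The shared sites of the chain lay near its start, in its middle and at its last peak. The last, at chr4:62984606-62984768, held place 1213 of the rib list, or 4.39%, and was the only chain peak in the first 10% of it, a part that holds 12.2% of all Class II peaks. Its nasal partner at chr4:62984593-62984795 held place 904 of the nasal list, or 5.18%. The remaining 3 shared sites were late in the nasal list. The rib peak at chr4:62910141-62910288 stood at 70.0% of the rib list and its partner at 92.2% of the nasal list. The widest chain peak, 416 bp at chr4:62914626-62915041, stood at 22.9% and its partner at 94.2%. The peak at chr4:62944413-62944564 stood at 23.4% and its partner at 77.0%. The remaining nasal peak of the span, at chr4:62912804-62912922, lay 1.70 kb from the nearest rib peak and overlapped none.

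Between these sites the rib list had runs of peaks where the nasal list had none. No nasal peak was called over 29405 bp between the third and the fourth nasal peak of the chain, where the rib list had 4 Class II peaks. Another 39991 bp without a nasal peak, up to the last one, held 6. These 10 peaks made up all but 1 of the 11 chain peaks without a nasal partner. Most Class II peaks of the whole list had no partner either, as 34.4% were overlapped. The nearest nasal peak stood a median of 11.6 kb from the 11, against 23.1 kb for all Class II peaks without overlap. Lengths of stretches without a nasal peak were not compared with the rest of the genome. The 10 peaks were not confined to the end of the rib list. The peak at chr4:62949580-62949831 held place 5014, or 18.1%, the earliest of all interval peaks without a partner, and that at chr4:62928621-62928930 stood at 26.4%. The peak at chr4:62957974-62958216 stood at 94.6%, the latest in the interval. A site without a nasal peak may still have fallen below the calling threshold, which the lists cannot show.

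Shared sites early in the rib list tended to be early in the nasal list. Over the 10 pairs, Spearman's rho between the 2 places was 0.77, as a description of sites that share their libraries. The 3 shared sites beyond the first 10% of the rib list had partners at 77.0% of the nasal list or later. No rho over all shared peaks is given beside it. The lists differ in length, so a place in one is not a level to set against the other. The Class I peak at chr4:62880763-62880928 stood at 5.11% of the rib list, and its partner at 74.7% of the nasal list.

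**Figure D4:**
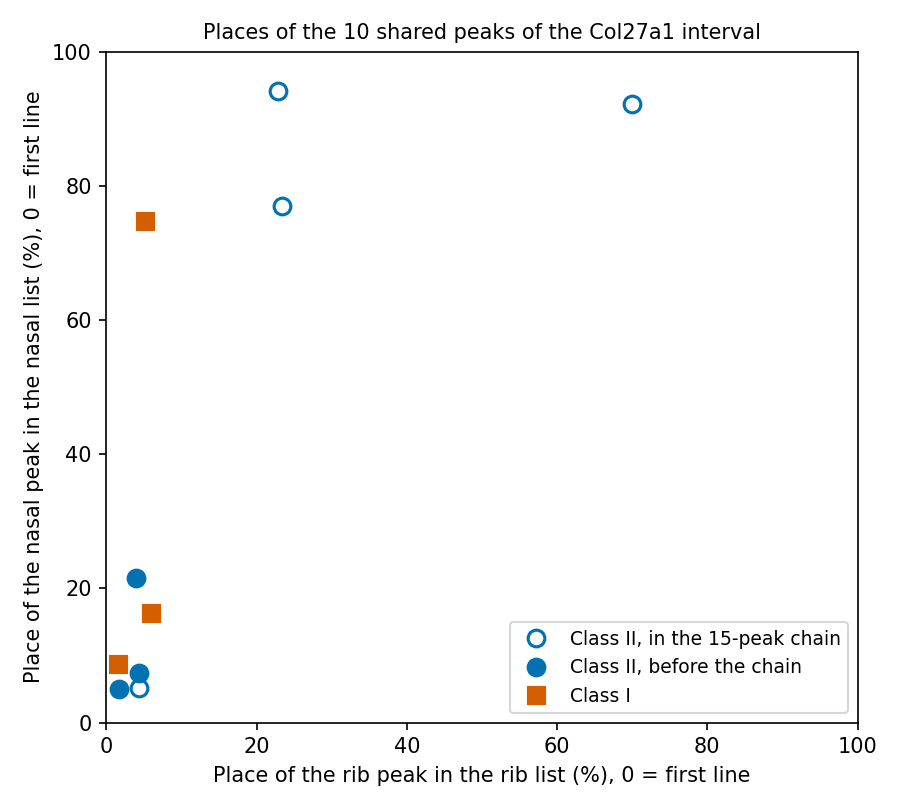
Place in the rib list (%, horizontal) and in the nasal list (%, vertical) of the 10 rib peaks of the Col27a1 interval that share at least 1 bp with a nasal peak, by class and by position in or before the 15-peak chain. Most early rib peaks have early partners, with 1 Class I peak at 5.11% and 74.7%, and 3 of the 4 chain peaks lie at 77.0% or later on the nasal axis.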

How the data were processed

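The authors deposited 4 Sox9 peak lists as chromosome, start and end, on mm9 per the submitters' processing notes, without a height, fold or p-value. The sources used here do not name the aligner, peak caller, control library or class definition. Per the labels' protocols, chondrocytes were fixed in 1% formaldehyde for 10 minutes, 20000000 cells and 9 μg of antibody entered each immunoprecipitation, chromatin was sheared to 100 to 600 bp, and libraries had 18 cycles of PCR. Peaks are separate calls from a single library per tissue.

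Positions are the deposited ones with 1 added to the start. Peaks belonged to the interval by their centre. Overlap meant at least 1 shared bp, a chain meant gaps of at most 10 kb edge to edge, and place meant the line number in a list, also given as percent of its length. Shares have 95% exact (Clopper-Pearson) intervals, which cover counting error alone. No test was run, as there was 1 library per tissue and the members were chosen from the lists. The genes named are Col27a1, its neighbours and the fibrillar collagens, and all peaks of the interval are accounted for. A planned comparison of collagen proteins was not run. The members, the lists and the measures were chosen with earlier results of these data known. Promoter and microRNA sequences are RefSeq's, and no position was converted between builds. Overlap and chain routines were tested on simulated lists and against bedtools 2.31.1. Computation ran in Python 3.11.15 with scipy 1.17.1, pandas 2.3.3 and numpy 2.4.6, and figures were drawn with matplotlib 3.10.9.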

Additional observations from a re-analysis of the deposited data

How the results depend on the processing

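Of 28 recomputed values, 20 stayed within 1.5 times the reported count or within the interval of the reported share. Under other overlap rules and bounds the share of rib peaks with a nasal partner ranged from 25.8% to 34.5%. With the first 50% of each list alone, the interval held 15 rib peaks and 6 nasal peaks, 40% of those rib peaks and 100% of those nasal peaks were overlapped, and the longest Class II chain had 3 peaks; fewer peaks enter by construction. Chain length follows the gap allowed. It was 4 peaks at 5 kb, in tied groups before the 15-peak chain, and 27 at both 25 and 50 kb. Nasal peaks overlapped 0 of the 4 peaks from 62862355 to 62867013 and 1 of the 4 from 62882242 to 62890309. With a shared part of at least 50% of each partner, 2 of the 15 chain peaks had a partner, or 13.3%. Depth and strength behind each peak are unknown, so a missing peak is no measure of absent binding. No paired analysis was possible because each group holds 1 library.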
